A study of Mus musculus with 50 samples.

Results

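The genes described here are 40 genes of mitosis and DNA replication, measured by RNA sequencing in 50 libraries of mouse thyroid. They were taken as a list of symbols from cell biology, not by a cut on measured values, though with earlier results of these data known. All 40 symbols matched a gene among the 52636 genes of the deposited tables. They fall into 5 roles: mitotic cyclins, kinases and exit factors (13 genes), spindle, kinetochore and chromosome proteins (12), replication licensing and fork proteins (10), enzymes of nucleotide supply (3) and transcription factors (2). Mitotic genes are those of the first 2 roles, 25 in number.

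The mice were male C57BL/6 animals from Jackson Laboratories, with no mutation or transgene named. The sample labels give their age as 10 to 14 weeks and the series design as 10 to 12 weeks. Each mouse received antibodies in 1 intraperitoneal injection. RW is an anti-ragweed isotype control at 40 mg/kg. The pair aJ1aJ2 blocks the Notch ligands Jag1 and Jag2 at 20 mg/kg each, the pair aN1aN2 blocks the receptors Notch1 and Notch2 at 5 and 10 mg/kg, and aN1aN2aN3 adds an antibody to Notch3 at 20 mg/kg. Thyroids of RW, aJ1aJ2 and aN1aN2 mice were taken at 15 hours and at 5 days. At 7 days the first of 2 sets compared aJ1aJ2 mice with RW mice, and the other compared aN1aN2aN3 mice with aJ1aJ2 mice, with no RW group of that set analysed here. The 10 groups have 5 libraries each. By sample identifier and order of the deposited counts, aN1aN2 at 15 hours stands with the 5-day groups. RW and aJ1aJ2 at 15 hours stand in another run of identifiers. The labels do not say whether these identifier runs are batches. A batch could not be told apart from the antibody in comparisons of aN1aN2 at 15 hours with another group. Nor could it be told apart from time between 15 hours and 5 days. The series text also mentions daily thyroid hormone (T4 and T3) from day 2, without a label that ties it to single mice or groups. The labels number the libraries of a group without saying what separates them, so every p-value below measures the spread between these libraries, which may be technical.

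Cells express most of these genes only while they prepare to divide. Mcm2 to Mcm7 form the ring-shaped helicase that Cdc6 and Cdt1 load onto DNA before replication, and Cdk1 with its cyclins later drives entry into mitosis. Mki67, the gene of the Ki-67 antigen, is widely used to mark dividing cells. The adult thyroid divides slowly, whereas young thymocytes in the neighbouring thymus divide fast. In bulk tissue, fewer dividing cells and less of each RNA per cell cannot be told apart.

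The promoters of these genes carry letters that are shared across the list. RefSeq start sites (GRCm38.p6) were matched for 34 of the 40 genes, and the window from 250 bases before to 50 bases after the start was read. These letters were searched on both strands: TTTGAA, the core of the cell cycle genes homology region (CHR), CCAAT, and the E2F letters TTTCCCGC, TTTGCCGC, TTTCGCGC or TTTGGCGC. TTTGAA was found in 50.0% of the 34 genes (95% exact Clopper-Pearson interval 32.4 to 67.6%) against 17.9% of all 32851 promoter windows. CCAAT was found in 79.4% (62.1 to 91.3%) against 37.4%, and the E2F letters in 20.6% (8.70 to 37.9%) against 2.3%. The intervals cover counting error only.

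The roles differed in which letters they carried. TTTGAA lay in 15 of 21 mitotic promoters and in 2 of 13 promoters of the other 3 roles. The E2F letters lay in 1 of 21 and 6 of 13. A match describes letters, not a bound site. The 6 promoters shown, 3 mitotic and 3 of replication, whose genes carry the results below are printed 5′ to 3′ on the gene's strand, with matches of all 3 kinds in capitals. On the reverse strand TTTGAA reads TTCAAA, the letters CCAAT read ATTGG, and the E2F letters read as their reverse complements. A pair of E2F matches that overlap on opposite strands forms 1 longer run of capitals in Mcm5 and in Mcm6. Cdk1, the mitotic kinase, is at chr10:69352863-69353162 (minus strand), Top2a, which untangles DNA before chromosomes part, at chr11:99024140-99024439 (minus), and Bub1b, a spindle checkpoint protein, at chr2:118597961-118598260 (plus). Mcm6 is at chr1:128359656-128359955 (minus), Mcm5 at chr8:75109259-75109558 (plus) and the loading factor Cdt1 at chr8:122567765-122568064 (plus).
Cdk1: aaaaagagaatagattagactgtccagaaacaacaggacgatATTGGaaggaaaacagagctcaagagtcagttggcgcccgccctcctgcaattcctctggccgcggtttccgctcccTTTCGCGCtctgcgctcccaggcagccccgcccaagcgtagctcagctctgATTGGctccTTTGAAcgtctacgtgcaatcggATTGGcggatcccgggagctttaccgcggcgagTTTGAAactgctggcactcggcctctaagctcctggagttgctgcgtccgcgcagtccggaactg
Top2a: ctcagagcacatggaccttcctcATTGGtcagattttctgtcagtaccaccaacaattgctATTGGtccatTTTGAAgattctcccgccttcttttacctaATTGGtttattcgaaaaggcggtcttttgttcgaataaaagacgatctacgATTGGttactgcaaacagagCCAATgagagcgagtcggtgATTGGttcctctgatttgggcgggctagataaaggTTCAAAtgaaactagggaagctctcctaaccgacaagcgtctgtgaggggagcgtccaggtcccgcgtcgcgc
Bub1b: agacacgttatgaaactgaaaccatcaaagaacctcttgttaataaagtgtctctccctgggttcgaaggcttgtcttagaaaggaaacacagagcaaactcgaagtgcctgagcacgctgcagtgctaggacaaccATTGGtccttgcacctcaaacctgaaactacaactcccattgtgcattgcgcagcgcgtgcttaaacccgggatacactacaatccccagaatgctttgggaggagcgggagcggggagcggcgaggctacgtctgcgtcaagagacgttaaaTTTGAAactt
Mcm6: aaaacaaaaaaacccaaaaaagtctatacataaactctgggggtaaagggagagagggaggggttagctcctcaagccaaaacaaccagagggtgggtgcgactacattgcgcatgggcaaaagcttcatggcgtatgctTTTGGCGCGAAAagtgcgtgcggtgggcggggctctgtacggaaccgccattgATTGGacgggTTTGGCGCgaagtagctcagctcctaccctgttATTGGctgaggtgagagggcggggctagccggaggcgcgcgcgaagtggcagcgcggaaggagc
Mcm5: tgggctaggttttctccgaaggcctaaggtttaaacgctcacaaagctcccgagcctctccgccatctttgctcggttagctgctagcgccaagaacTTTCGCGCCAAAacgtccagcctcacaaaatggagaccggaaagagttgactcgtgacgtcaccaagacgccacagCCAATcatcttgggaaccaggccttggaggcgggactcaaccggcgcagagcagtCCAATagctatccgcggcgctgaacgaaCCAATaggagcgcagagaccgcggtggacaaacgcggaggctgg
Cdt1: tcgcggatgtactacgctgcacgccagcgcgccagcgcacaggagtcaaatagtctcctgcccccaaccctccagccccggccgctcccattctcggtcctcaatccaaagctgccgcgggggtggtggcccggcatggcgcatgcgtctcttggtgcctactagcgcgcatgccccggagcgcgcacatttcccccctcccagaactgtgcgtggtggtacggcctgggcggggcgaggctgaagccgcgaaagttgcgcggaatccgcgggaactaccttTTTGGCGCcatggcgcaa

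Libraries held 15271242 to 52835846 counts. Levels are CPM, counts relative to a scaled library size (TMM scaling over the 50 libraries), and levels of different genes are compared only per length, as the deposited FPKM. Per length, in RW libraries at 15 hours and apart from Ube2c, described next, the 4 highest members were genes of replication and nucleotide supply: the median FPKM was 1.48 for Mcm2, 1.05 for Mcm6, 1.05 for Mcm4 and 1.05 for Rrm1, a subunit of ribonucleotide reductase. Among mitotic genes the median FPKM was 0.195 for Mki67, 0.138 for Top2a, 0.0747 for Cdk1 and 0.0148 for Ccnb1 (cyclin B1). The roles overlapped in level: the mitotic genes Ccna2 (0.485) and Cdc20 (0.466) stood above Mcm5 (0.417), and the replication genes Cdc45 (0.0868) and Cdc6 (0.0413) stood below Mki67. A low level leaves few reads, and Ccnb1 was below the count filter in every comparison.

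Ube2c, which encodes a ubiquitin-conjugating enzyme of mitotic exit, stood apart from the list. Its median FPKM at 15 hours in RW was 7.70, and its level over the 50 libraries ran from 3.87 to 11626 CPM. Its exons share 592 bases, 22.8% of its exon bases, with Tnnc2, the fast skeletal muscle troponin C gene on the opposite strand. The ratio of Ube2c to Tnnc2 counts stayed between 0.931 and 1.02 in the 10 libraries of the second 7-day set, between 1.16 and 2.57 in the RW and aJ1aJ2 libraries at 15 hours and in the first 7-day set, and between 1.77 and 2.87 in the other 20. Sums below leave Ube2c out, since its counts cannot be told apart from those of a muscle gene where the exons overlap and the strand used in counting is not given in the sources used here. Counts and medians of fold changes keep Ube2c, so the members tested are up to 39 with Ube2c and without Ccnb1. Ube2c was past the threshold in no comparison, and leaving it out moved no median of fold changes by more than that of aN1aN2 against RW at 5 days, from 1.91 to 1.97. Exons of 10 other members also overlap another gene, among them Kif20a with Cdc23 (29.3% of its exon bases) and Ccna2 with Exosc9 (12.5%), and their counts are uncertain to that degree.

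A pair of patterns ran through the 50 libraries: the summed mitotic genes had a wider range than the summed replication genes, and a few libraries set most of that range. The summed level of 24 mitotic genes (all but Ube2c) had a median of 38.5 CPM and ran from 17.3 to 1161 CPM, a 67.3-fold range. The 10 licensing and fork genes had a median of 92.5 CPM and ran from 54.1 to 341 CPM, a 6.30-fold range. One library, aN1aN2 at 5 days replicate 4, gave both highest values, and the next highest mitotic sum was 187 CPM. Over the 38 libraries in which no thymocyte or neutrophil list stood out, as described next, the mitotic sum ran from 17.3 to 90.9 CPM (5.26-fold) and the licensing sum from 54.1 to 125 CPM (2.31-fold). The plot of both sums by group shows a few libraries far above their group's median in the upper panel, of which 1, at 341 CPM, is also far above it in the lower.

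**Figure D1:**
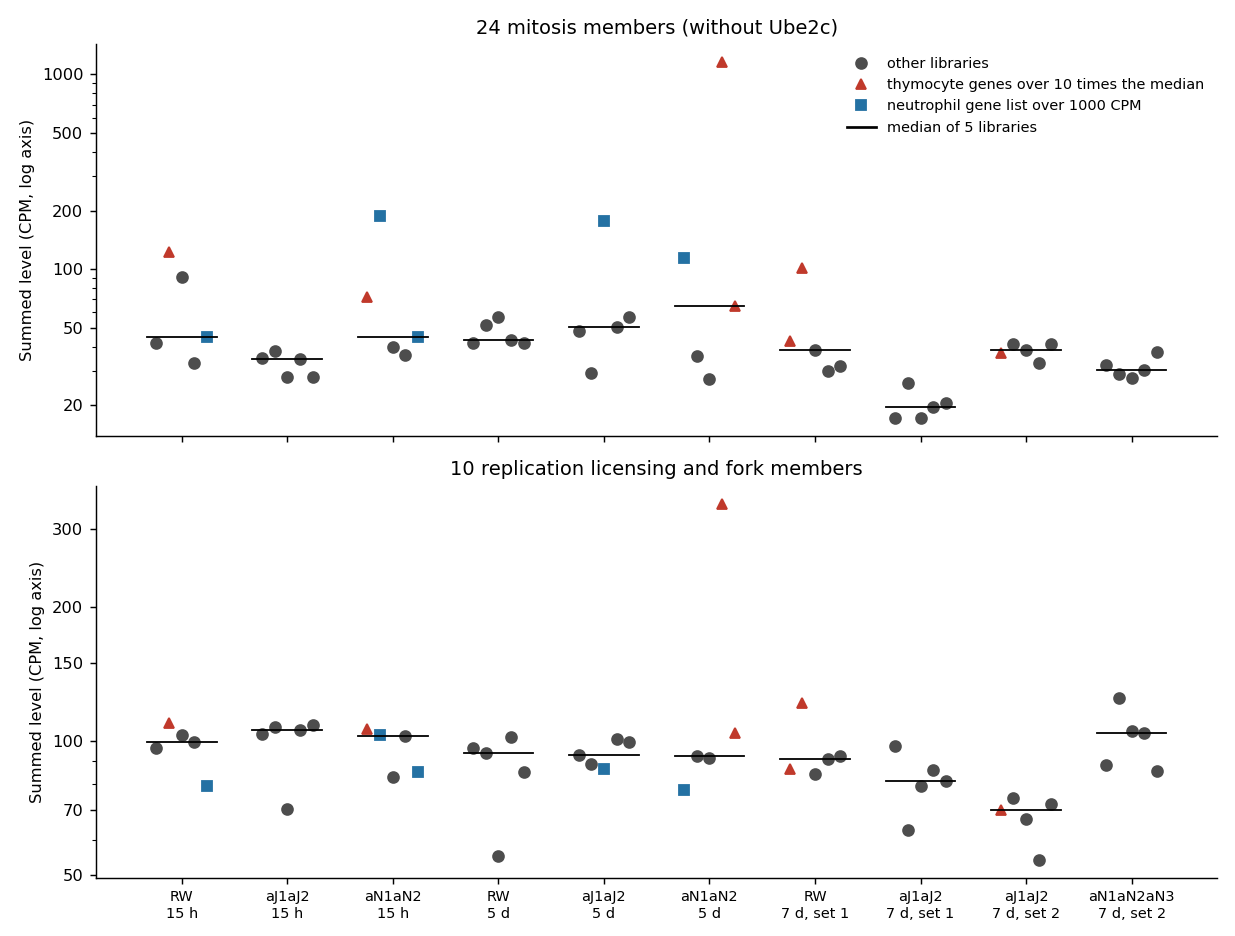
Summed level (CPM, log axes) of 24 mitotic genes (top) and 10 replication licensing and fork genes (bottom) in each of 50 libraries, by group. Black lines are medians of 5 libraries, triangles are libraries with thymocyte genes over 10 times the median and squares are libraries whose neutrophil gene list exceeds 1000 CPM. The mitotic sum reaches 1161 CPM in 1 aN1aN2 library at 5 days, and its group median is lowest, 19.5 CPM, for aJ1aJ2 in the first 7-day set.

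Before any comparison, libraries were checked with markers of other cells. The thymocyte list (Rag1, Rag2, Dntt, Ptcra, Arpp21, Ccr9, Cd8b1, Themis) exceeded 10 times its median in 7 libraries: RW at 15 hours replicate 2, aN1aN2 at 15 hours replicate 1, aN1aN2 at 5 days replicates 4 and 5, RW in the first 7-day set replicates 1 and 2, and aJ1aJ2 in the second set replicate 1. A neutrophil list exceeded 1000 CPM in 5 others. In 4 of these 5 the sum was nearly all lactotransferrin (Ltf, 9522 to 26872 CPM), a gene that glands also express, with the other 7 genes together at 1.27 to 138 CPM. A list of airway epithelium genes was at 1079 to 8125 CPM in these 4, against group medians of 16.2 to 173 CPM. In the fifth, aJ1aJ2 at 5 days replicate 3, those 7 genes summed to 1102 CPM. The B cell list of that library, at 68.6 CPM, was the highest of all libraries. Its erythroid list was at 795 CPM and its T cell list at 17.4 CPM. The 38 remaining libraries had a summed level of 39 members (all but Ube2c) of 128 to 236 CPM and Mki67 at 0.580 to 16.0 CPM. The T cell list was at 61.5 to 1559 CPM in the 7 libraries over the thymocyte cut. Below that cut a raised thymocyte sum did not always come with T cell genes. It was 20.3 CPM in RW at 5 days replicate 3, with the T cell list at 9.04 CPM and skeletal muscle genes at 216486 CPM. In aJ1aJ2 at 5 days replicate 3 it was 20.9 CPM.

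The outlying library of the series was aN1aN2 at 5 days replicate 4. Mki67 stood at 20.1, 5.19, 3.51, 252 and 10.5 CPM in replicates 1 to 5 of that group, and Top2a at 14.1, 2.67, 1.76, 235 and 8.40 CPM. Replicate 4 was the high one in both. Of the 40 members, 38 had their highest level of all 50 libraries there. All 39 members without Ube2c were more than 2-fold above the median of the other 4 replicates, from 2.54-fold for Mcm6 to 45.2-fold for Hmmr, a spindle protein.

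The same library held the markers of thymus. Rag1, a recombinase of developing lymphocytes, was at 0.0648, 0.0763, 0.111, 496 and 31.1 CPM in replicates 1 to 5, and the T cell list summed to 1559 CPM in replicate 4. The thymic epithelium list summed to 277 CPM there, with its defining gene Foxn1 at 6.47 CPM, while the B cell list reached 16.0 CPM, inside the range of the other libraries. The thyrocyte list was still present at 133384 CPM, between the 112636 CPM of replicate 1 and the 484066 CPM of replicate 3.

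Thymocyte genes and cell cycle genes did not keep 1 ratio over the 7 libraries. Mki67 divided by Rag1 was 0.508 in that library, 0.103 in RW replicate 2 of the first 7-day set, 1.76 in RW replicate 2 at 15 hours, and 2.31 in aJ1aJ2 replicate 1 of the second set, where both genes were low. How much of Mki67 in each came from thymus was not tested.

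Other libraries had high mitotic genes with few thymocyte markers. In aN1aN2 at 15 hours Mki67 stood at 14.9, 40.8, 5.17, 5.82 and 3.77 CPM, with replicate 2 highest, and Rag1 there was 6.05 CPM. That library had keratin 4 (Krt4) at 2840 CPM and keratin 13 (Krt13) at 3217 CPM, keratins of stratified epithelium such as the lining of the oesophagus. Krt4 exceeded 100 CPM in 4 libraries, all at 15 hours: RW replicates 2 and 3 (113 and 385 CPM) and aN1aN2 replicates 1 and 2 (115 and 2840 CPM). These 4 were also the 4 highest in Mki67 at 15 hours. Of them, RW replicate 2 and aN1aN2 replicate 1 are also among the libraries high in thymocyte genes. Their thymocyte lists summed to 49.9 and 129 CPM, against 4.12 CPM in RW replicate 3 and 23.8 CPM in aN1aN2 replicate 2. In aJ1aJ2 at 15 hours Krt4 was at or below 0.426 CPM in all 5 libraries.

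In these libraries each member was divided by the median of the other 4 replicates of its group. In aN1aN2 at 5 days replicate 4 the median ratio was 20.5 for spindle and kinetochore genes, 19.1 for mitotic cyclins and kinases and 4.23 for licensing and fork genes. In aN1aN2 at 15 hours replicate 2 the 3 medians were 4.94, 3.98 and 1.05, and in aJ1aJ2 at 5 days replicate 3 they were 3.37, 3.84 and 1.22. In RW replicate 2 of the first 7-day set they were 2.46, 2.84 and 1.28. Of these 3 roles, licensing and fork genes had the smallest median ratio in each of these 4 libraries.

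**Figure D2:**
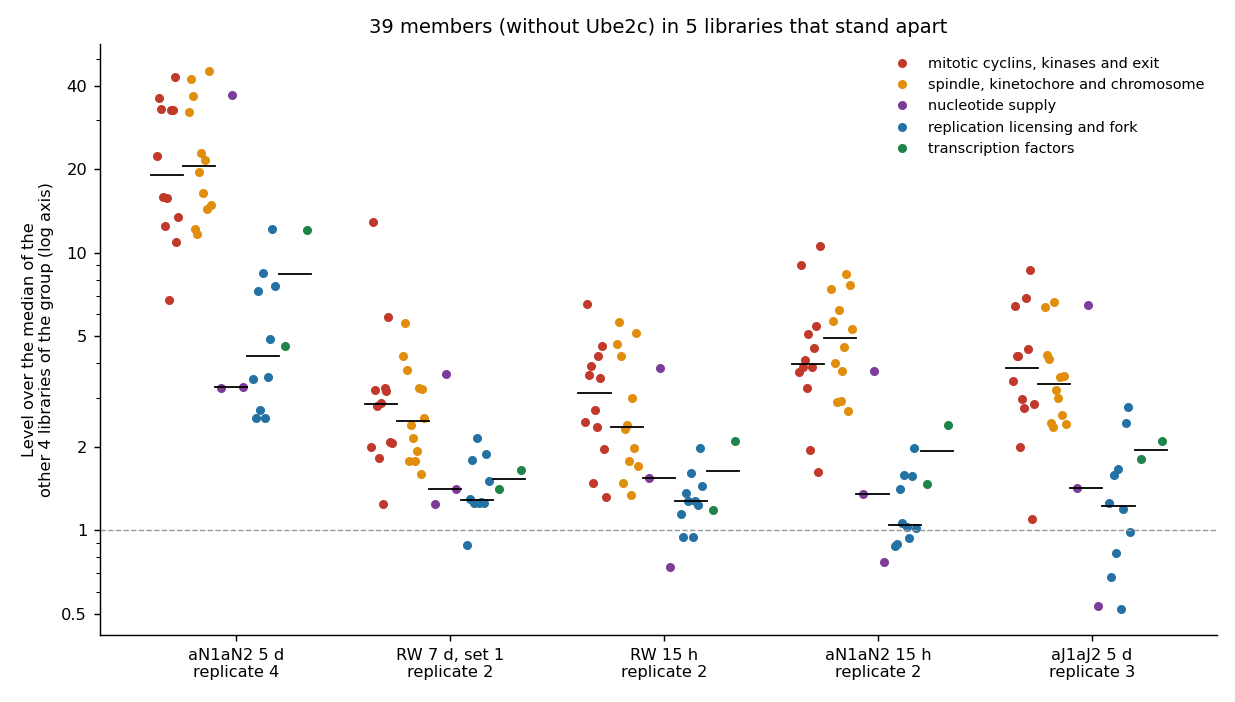
Level of each member divided by the median of the other 4 replicates of its group (log axis), by role, in 5 libraries. Each point is 1 of 39 members, each black line the median of its role, and the dashed line a ratio of 1. In aN1aN2 at 5 days replicate 4 all 39 members lie above 2, whereas the licensing and fork genes have medians of 1.05 to 1.28 in the other 4 libraries.

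At 15 hours the members ran lower in aJ1aJ2 than in RW, but none passed the test. Mki67 stood at 4.25, 21.5, 16.0, 4.90 and 4.09 CPM in RW and at 3.46, 4.95, 2.52, 3.23 and 2.58 CPM in aJ1aJ2. The groups overlapped, with RW replicates 2 and 3 high and the other 8 libraries between 2.52 and 4.95 CPM. The log2 fold change of Mki67 was -1.60 (SE 0.67), with an adjusted p of 0.716 by edgeR's quasi-likelihood test with Benjamini-Hochberg adjustment over all genes, which is the test behind every adjusted p below unless DESeq2 is named.

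Of 39 members tested, 0 passed an adjusted p of 0.05 in that comparison by edgeR, where 0.573% of all genes did, and 0 by DESeq2 (1.43% of all genes). At an unadjusted p under 0.05, 8 were lower and 0 higher, against 2.75% of all genes lower and 3.84% higher. The median log2 fold change was -0.69 over the members and -0.03 over all 18513 genes tested. By role it was -1.04 for spindle genes, -0.99 for mitotic cyclins and kinases and -0.06 for licensing genes. The 5 smallest p-values were those of Tpx2 (-1.17), Mki67, Cdc20 (-0.98), Kif11 (-1.25) and Cenpa (-0.80), genes of the spindle, of mitotic exit and of the centromere. Among the other genes fixed for naming, log2 fold changes were -1.36 for Top2a, -1.11 for Cdk1, -0.69 for Ccna2 (cyclin A2), -1.45 for the mitotic kinase Plk1, -1.24 for Rrm2 (the other reductase subunit) and -0.58 for the mitotic transcription factor Foxm1. They were -0.28 for the sliding clamp Pcna, -0.01 for Mcm5, 0.08 for Mcm6 and 0.09 for E2f1, a transcription factor of S phase. The median of the members was -0.12 without the 4 libraries high in Krt4, -0.41 without the libraries high in thymocyte genes and -0.43 without RW replicate 2. That Krt4 set was chosen after the data were seen, and it includes the RW libraries highest in Mki67 at this time. Leaving it out lowers the RW side by the way the set was chosen, so the value of -0.12 does not test the difference.

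With receptor blockade at 15 hours the members lay near RW, in a comparison across the identifier runs named at the start. The median log2 fold change of aN1aN2 against RW was 0.08 over 39 members and 0.01 over all genes, with 0 of 39 members past the threshold against 1.68% of all genes, 0 by DESeq2 (4.55%), and 1 higher and 1 lower at an unadjusted p under 0.05 (6.67% and 7.77% of all genes). The smallest p-values were those of Cdt1 (-0.84, adjusted p = 0.237), Mcm4 (0.25), Mcm2 (-0.34), E2f1 (0.31) and Melk (0.97). Mki67 had a log2 fold change of 0.47 (SE 0.66), Top2a of 0.20, Cdk1 of 0.24, Ccna2 of 0.05, Plk1 of -0.33, Rrm2 of -0.10, Pcna of 0.03, Mcm5 of 0.10, Mcm6 of 0.08 and Foxm1 of -0.22. Leaving out aN1aN2 replicate 2 turned the members' median to -0.40, and leaving out RW replicate 2 raised it to 0.32.

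The antibody pairs were also set side by side at 15 hours, again across the identifier runs. Against aJ1aJ2, aN1aN2 had a median of 0.84 over the members and 0.00 over all genes, with 0 of 39 members past the threshold (0.13% of all genes) and 14 higher at an unadjusted p under 0.05 (7.1% of all genes). Melk had the smallest p (2.46, adjusted p = 0.219), followed by Mki67 (2.07, SE 0.68, adjusted p = 0.235), Cenpf (1.90), Bub1 (1.80) and Hmmr (1.93). The other fixed genes lay between 0.00 for Mcm6 and 1.56 for Top2a. DESeq2 called 2 members, among them Mki67 (adjusted p = 0.0424), where it called 2.72% of all genes. The median fell to 0.34 without aN1aN2 replicate 2 and to 0.11 without the libraries high in Krt4. The latter set was chosen after the data were seen and holds the highest Mki67 levels at 15 hours.

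**Figure D3:**
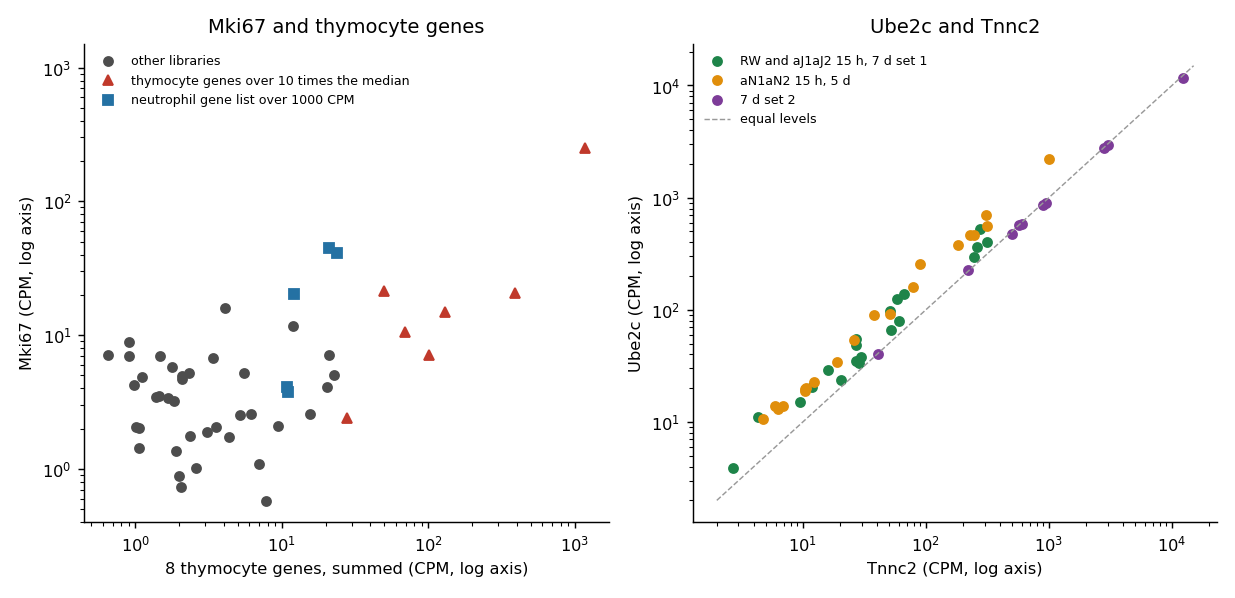
Left, Mki67 against the sum of 8 thymocyte genes, and right, Ube2c against the muscle gene Tnnc2 (CPM, log axes; each point is 1 of 50 libraries). Mki67 runs from 0.580 to 252 CPM with the highest library also highest in thymocyte genes, and Ube2c lies along Tnnc2 at count ratios of 0.931 to 2.87 (the dashed line marks equal levels).

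At 5 days the members were higher in aN1aN2 than in RW by the widest median of the comparisons between groups, and 1 library carried it. Mki67 in RW was 7.04, 8.94, 4.11, 6.73 and 7.10 CPM, and 3 of the 5 aN1aN2 libraries given above lay higher than all of these and 1 lower. The log2 fold change of Mki67 was 3.09 (SE 1.12, adjusted p = 0.334), that of Top2a 3.57 (SE 1.20, adjusted p = 0.293) and that of Plk1 3.39 (SE 0.90, adjusted p = 0.215). Of 39 members 38 were positive, where 58.5% of all genes were negative, and 23 passed an unadjusted p of 0.05, against 5.65% of all genes higher. None passed after adjustment, as for 0% of all genes, and the median was 1.91 against -0.07 over all genes.

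The remaining small p-values in that comparison were those of Bub1b (2.36), Melk (3.03) and Ccnb2 (cyclin B2, 3.13). Cdk1 had 2.42, Ccna2 2.30, Rrm2 3.06, Foxm1 1.84, Mcm5 1.18, Mcm6 0.66, E2f1 0.63 and Pcna 0.32. Without replicate 4 of aN1aN2 the median over the members was 0.14. DESeq2, which gave an adjusted p for 22 members, called 3, among them Plk1 and Bub1b. It called 2.18% of all genes, a share that also counts genes without an adjusted p.

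The interaction test asked whether the aN1aN2 effect differed between 5 days and 15 hours. Its 15-hour part lies across the identifier runs. Plk1 (3.66, SE 1.00, adjusted p = 0.0343) and Bub1b (2.56, SE 0.70, adjusted p = 0.0345) rose more at 5 days, 2 of 39 members against 1.3% of all genes in that direction and 3.14% in either (4 members and 5.95% by DESeq2). Bub1b at 5 days was 2.54, 2.80, 1.17, 4.73 and 2.75 CPM in RW and 4.96, 3.28, 4.35, 50.9 and 8.89 CPM in aN1aN2. Plk1 was 0.285, 0.150, 0.254, 0.352 and 0.503 CPM in RW and 3.05, 0.343, 0.585, 11.8 and 0.922 CPM in aN1aN2. Both groups overlapped in both genes. The median of the members was 1.98 against -0.05 over all genes, and 0.04 without aN1aN2 at 5 days replicate 4, where neither gene passed (Plk1 2.21, adjusted p = 0.191; Bub1b 1.15, adjusted p = 0.238). Both calls were also lost on leaving out any 1 of RW at 15 hours replicate 2, RW at 5 days replicate 1 or 2, or aN1aN2 at 15 hours replicate 3, 4 or 5. One of the calls was lost without RW at 15 hours replicate 4 or 5, or aN1aN2 at 15 hours replicate 1, and 4 members passed without aN1aN2 at 15 hours replicate 2. The calls were 0 without the libraries high in thymocyte genes, 0 with the log2 sum of the thymocyte list as a covariate and 0 without the libraries high in Krt4. The Krt4 set was chosen after the data were seen and holds the highest Mki67 levels at 15 hours.

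The next smallest p-values of that interaction were those of Cdt1 (1.86, adjusted p = 0.0826), Ccnb2 (3.40) and Kif20a, a motor of cytokinesis (2.01). Among the fixed genes the interaction was 3.32 for Top2a, 3.14 for Rrm2, 2.57 for Mki67, 2.22 for Ccna2, 2.14 for Cdk1, 2.03 for Foxm1 and 1.05 for Mcm5, and it lay between 0.28 for Pcna and 0.57 for Mcm6 in the remaining 3.

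Ligand blockade at 5 days gave 0 of 39 members past the threshold by edgeR (0.179% of all genes). DESeq2 called 0 of the 22 members with an adjusted p, and 2.83% of all genes, counting those without one. The median of aJ1aJ2 against RW was 0.34 over 39 members and -0.06 over all genes, and 0 members had an unadjusted p under 0.05 (5.74% of all genes higher and 6.02% lower). Mki67 in aJ1aJ2 was 7.09, 3.39, 44.9, 6.94 and 11.7 CPM, with replicate 3 highest, the library with neutrophil and B cell genes. The log2 fold change of Mki67 was 1.13 (SE 1.05, adjusted p = 0.688). The other small p-values were those of Bub1b (1.07), Plk1 (1.33), the kinase Aurka (-0.99) and Birc5 (1.12). Top2a had 0.97, Cdk1 0.61, Ccna2 0.61, Rrm2 1.01, Foxm1 0.22, Mcm6 0.21, Mcm5 0.15, E2f1 -0.10 and Pcna -0.15. Without replicate 3 the median was -0.05.

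RW itself had 1 outlying library at 5 days. Replicate 3 held skeletal muscle genes at 216486 CPM and the thyrocyte list at 8071 CPM, against a group median of 454131 CPM. Its Mcm6 was 6.40 CPM (25.6 to 35.4 CPM in the other 4), Mcm5 was 2.03 CPM and Tyms, thymidylate synthase, 0.660 CPM, while Rrm1 was 80.6 CPM and Aurka 18.0 CPM. The part of muscle in these values was not tested.

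Set directly against each other at 5 days, aN1aN2 exceeded aJ1aJ2 by a median of 1.57 over 39 members, with 0 past the threshold by edgeR (0% of all genes) or DESeq2 (0.266%) and 12 higher at an unadjusted p under 0.05 (2.13% of all genes). Melk (2.62), Plk1 (2.06), Kif20a (1.64), Hmmr (2.57) and Prc1 (1.75) had the smallest p-values. The other fixed genes ranged from 0.45 for Mcm6 to 2.60 for Top2a. The median was -0.10 without aN1aN2 replicate 4.

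The change of the aJ1aJ2 effect from 15 hours to 5 days had a median of 1.13 and 0 of 39 members past the threshold (0.981% of all genes; by DESeq2 0 members, 3.55%), with 3 higher at an unadjusted p under 0.05 (5.5% of all genes): Plk1 (2.72), Mki67 (2.68) and Bub1b (1.48). Rrm2 (2.22) and Cdc20 (1.52) followed, and the other fixed genes tested ranged from -0.20 for E2f1 to 2.29 for Top2a. Its median was 0.61 without aJ1aJ2 at 5 days replicate 3 and 0.44 without the libraries high in Krt4, the set chosen after the data were seen.

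**Figure D4:**
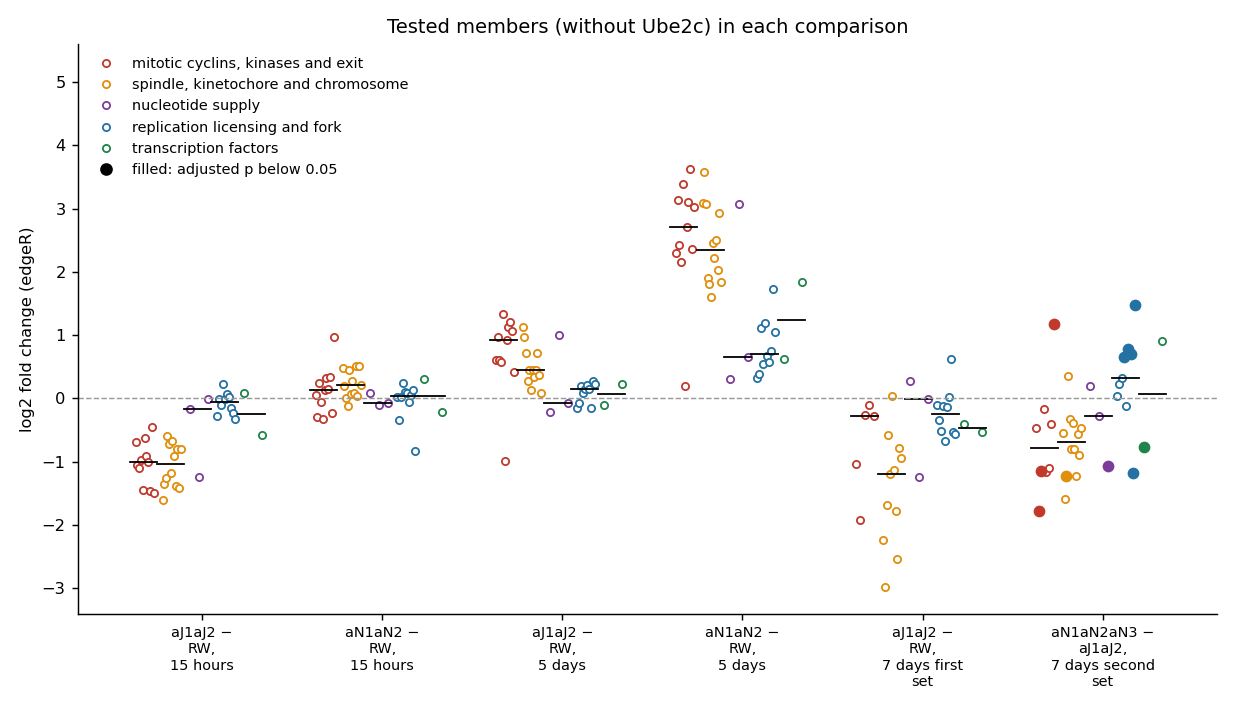
Log2 fold changes (edgeR) of the tested members without Ube2c in 6 comparisons, coloured by role, with black lines at role medians and filled points for an adjusted p below 0.05. For aJ1aJ2 against RW at 15 hours the spindle median is -1.04 and the licensing median -0.06, and the 11 filled points all lie in the second 7-day set.

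In the first 7-day set, spindle and kinetochore genes were lower with aJ1aJ2 than with RW, although no single gene passed the adjusted threshold in edgeR. Top2a (ENSMUSG00000020914) was 5.58, 17.6, 4.09, 2.19 and 2.22 CPM in RW and 0.735, 0.751, 0.613, 1.28 and 0.567 CPM in aJ1aJ2. Cdk1 was 0.912, 3.15, 1.12, 1.12 and 1.31 CPM in RW and 0.283, 0.478, 0.557, 0.392 and 0.283 CPM in aJ1aJ2. Cenpf, a kinetochore protein, was 2.00, 3.74, 1.36, 0.924 and 0.740 CPM in RW and 0.170, 0.409, 0.167, 0.392 and 0.340 CPM in aJ1aJ2. In all 3 genes every RW library lay above every aJ1aJ2 library, and RW replicate 2 was the highest.

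The fitted differences were large but shared that control library. Log2 fold changes were -2.54 for Cenpf (SE 0.50, adjusted p = 0.117), -2.97 for Top2a (SE 0.61, adjusted p = 0.128) and -1.92 for Cdk1 (SE 0.40, adjusted p = 0.128). Cenpe, a kinetochore motor, followed with -1.78 (adjusted p = 0.149), Nusap1, a spindle protein, with -1.13 (adjusted p = 0.161) and Mki67 with -2.24 (SE 0.55, adjusted p = 0.17). Mki67 in RW was 7.05, 20.5, 5.02, 4.67 and 1.87 CPM, and in aJ1aJ2 1.75, 1.09, 2.06, 1.35 and 2.04 CPM, so that RW replicate 5 overlapped.

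Over the 32 members tested, 27 were negative (48.8% of all genes) and 15 passed an unadjusted p of 0.05 on the lower side, against 6.44% of all genes, and 1 on the higher side, against 5.17%. The median was -0.53 over the members, -1.20 over spindle genes, -0.28 over mitotic cyclins and kinases, -0.24 over licensing genes and 0.01 over all genes. The value for mitotic cyclins and kinases keeps Ube2c and leaves out the members below the count filter. Summed without Ube2c and without that filter, this role was at 6.79 to 11.3 CPM in aJ1aJ2 and at 12.2 to 30.7 CPM in RW, with no overlap. After adjustment 0 members passed, as for 0% of all genes, whereas DESeq2 called 8 of 32 (Ccna2, Cdk1, Mki67, Top2a, Kif11, Nusap1, Cenpe and Cenpf), all lower, where it called 2.46% of all genes. The groups did not overlap, with aJ1aJ2 lower, for 8 of the 32 (Ccna2, Cdk1, Top2a, Kif11, Nusap1, Cenpe, Cenpf and Mcm3), against 1.91% of all genes tested. The fixed genes not yet given had log2 fold changes of -1.03 for Ccna2, -1.24 for Rrm2, -0.67 for Mcm5, -0.52 for Foxm1, -0.40 for E2f1, -0.13 for Mcm6 and -0.11 for Pcna. The 8 members below the count filter were Ccnb1, Ccnb2, Plk1, Aurkb, Birc5, Bub1, Melk and Hmmr. All but Hmmr are mitotic cyclins, kinases and exit factors, and Birc5 and Bub1 also did not overlap, with aJ1aJ2 lower.

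Thymus markers moved with this comparison. The thymocyte list summed to 101, 391, 22.5, 2.09 and 3.09 CPM in RW and to 1.00 to 6.96 CPM in aJ1aJ2. The T cell list ran from 20.7 to 567 CPM in RW and from 11.6 to 18.8 CPM in aJ1aJ2, and the thymic epithelium list from 8.76 to 235 CPM and from 3.23 to 4.37 CPM. RW replicates 4 and 5, whose thymocyte sums lay inside the aJ1aJ2 range, had summed spindle genes at 18.0 and 16.8 CPM, above the highest aJ1aJ2 library (14.7 CPM), while their T cell and thymic epithelium sums were also above it. Without RW replicates 1 and 2 the members' median was -0.32, Top2a had -1.80, Cdk1 -1.56, Cenpf -1.73 and Mki67 -1.21, with adjusted p-values of 0.287 to 0.477. Without RW replicate 2 alone the median was -0.31. The part of thymus in the lower level was not tested.

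The aJ1aJ2 effect at 7 days was also set against that at 15 hours. The identifiers of these times stand in different runs, while their columns are interleaved in the deposited counts. A batch that followed the identifiers could not be told apart from time. The median difference over the members was -0.36, and 0 of 39 members passed by edgeR (0.3% of all genes) or DESeq2 (0.803%). At an unadjusted p under 0.05 the members counted 0 in each direction, against 4.28% of all genes lower and 3.13% higher. The smallest p-values were those of Bub1 (-2.34), Cdc45 (0.74), Top2a (-1.64), Mcm4 (-0.38) and Mcm2 (-0.37), and Mki67 had -0.65 (SE 1.20). The other fixed genes tested ranged from -0.86 for Cdk1 to 0.13 for Pcna. Without RW replicate 2 of the 7-day set the median was -0.06.

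**Figure D5:**
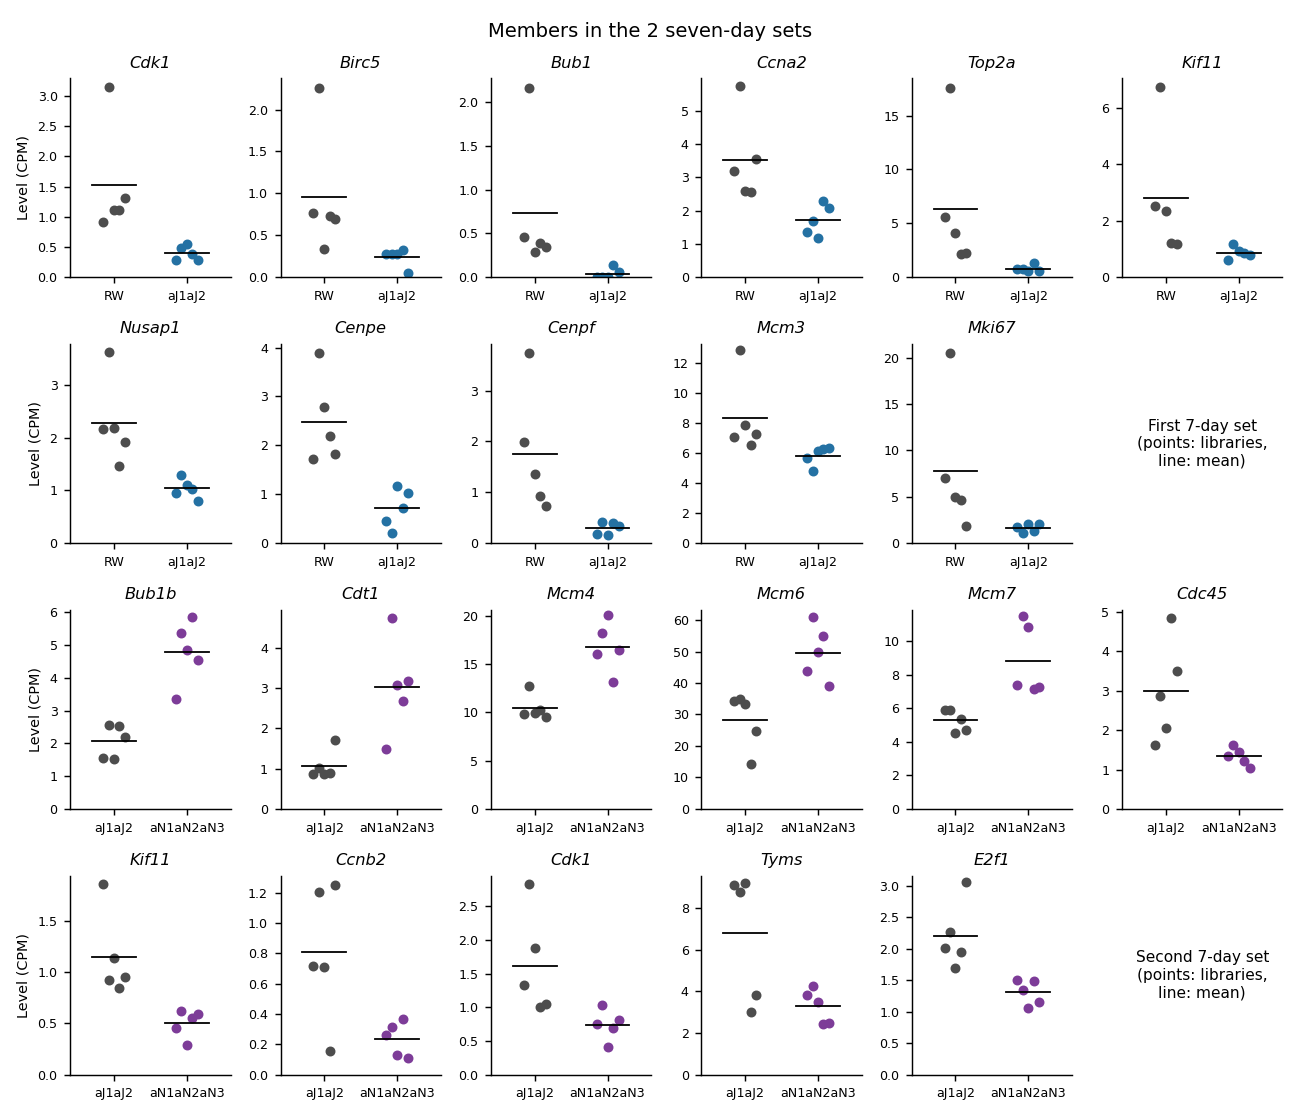
Levels (CPM, linear axes from 0) at 7 days, with RW and aJ1aJ2 of the first set in the upper 2 lines of panels and aJ1aJ2 and aN1aN2aN3 of the second set in the lower 2. Each point is 1 library and each line the mean of 5. In the first set Top2a, Cdk1 and Cenpf do not overlap between groups, and in the second set Bub1b and Mcm6 are higher, and Kif11 lower, in every aN1aN2aN3 library.

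Among the comparisons between groups, the second 7-day set was the only one with members past the threshold by edgeR, and they moved in both directions. With aN1aN2aN3, 5 members rose against aJ1aJ2: the checkpoint gene Bub1b, the loading factor Cdt1 and the helicase subunits Mcm4, Mcm6 and Mcm7. Another 6 fell: the helicase cofactor Cdc45, the spindle motor Kif11, the cyclin Ccnb2, the kinase Cdk1, thymidylate synthase Tyms and the transcription factor E2f1. These 11 of 35 members tested stand beside 19.6% of all genes, 9.19% higher and 10.4% lower (13 members and 26.4% by DESeq2). With no RW group beside them, the values compare the antibody sets only.

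Of 9 licensing and fork genes tested, 4 rose and 1 fell. Cdt1 (ENSMUSG00000006585) was 0.879, 1.02, 0.864, 0.896 and 1.70 CPM with aJ1aJ2 and 1.50, 4.74, 3.09, 2.68 and 3.18 CPM with aN1aN2aN3, a log2 fold change of 1.47 (SE 0.33, adjusted p = 0.0111). Mcm4 was 9.80, 12.7, 9.90, 10.3 and 9.51 CPM against 16.0, 18.2, 20.1, 13.2 and 16.5 CPM (0.65, SE 0.16, adjusted p = 0.0175). Mcm4 did not overlap between groups, and Cdt1 overlapped through 1 library of each group. Mcm6 was 34.3, 35.0, 33.2, 14.2 and 24.6 CPM against 43.8, 60.8, 49.9, 54.9 and 39 CPM (0.78, SE 0.24, adjusted p = 0.038), and Mcm7 5.92, 5.89, 4.52, 5.38 and 4.71 CPM against 7.40, 11.5, 10.9, 7.16 and 7.29 CPM (0.71, SE 0.21, adjusted p = 0.0319). Both separated the groups fully. The other helicase subunit fixed for naming, Mcm5, had -0.12 (adjusted p = 0.729).

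Bub1b, whose product holds back anaphase until chromosomes are attached, had the smallest p of the members. Its levels were 1.56, 2.55, 1.53, 2.53 and 2.20 CPM with aJ1aJ2 and 3.36, 5.37, 4.86, 5.85 and 4.55 CPM with aN1aN2aN3, with no overlap (1.18, SE 0.24, adjusted p = 0.00743).

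Among the members that fell, Kif11 was 1.86, 0.927, 1.14, 0.843 and 0.951 CPM with aJ1aJ2 and 0.456, 0.623, 0.289, 0.549 and 0.592 CPM with aN1aN2aN3 (-1.23, SE 0.34, adjusted p = 0.0259). Cdc45 was 1.63, 2.87, 2.04, 4.85 and 3.51 CPM against 1.34, 1.63, 1.45, 1.22 and 1.04 CPM (-1.18, SE 0.31, adjusted p = 0.0217). Kif11 separated the groups, and in Cdc45 the nearest libraries of the 2 groups were equal at 3 digits. Cdk1 was 1.33, 2.83, 1.89, 1.00 and 1.05 CPM against 0.750, 1.04, 0.418, 0.701 and 0.814 CPM (-1.15, SE 0.36, adjusted p = 0.0441), with overlap in 1 library. Tyms was 9.12, 8.76, 9.19, 3.00 and 3.81 CPM against 3.81, 4.26, 3.47, 2.44 and 2.48 CPM (-1.08, SE 0.34, adjusted p = 0.0456), where aJ1aJ2 replicates 4 and 5 were low. E2f1 was 2.02, 2.27, 1.69, 1.95 and 3.05 CPM against 1.50, 1.35, 1.06, 1.49 and 1.15 CPM (-0.77, SE 0.25, adjusted p = 0.0467). Its groups did not overlap. Ccnb2 was below 1.26 CPM throughout and overlapped (-1.78, SE 0.52, adjusted p = 0.0327).

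The other members of the second set stayed short of the threshold. Mki67 had -0.55 (SE 0.42, adjusted p = 0.369), Top2a -1.59 (adjusted p = 0.0625), Foxm1 0.91 (adjusted p = 0.0567), Ccna2 -0.46, Rrm2 -0.28 and Pcna 0.04. Over the 35 members the median was -0.46, and over all genes -0.07. The groups did not overlap for 5 members with aN1aN2aN3 higher (8.36% of all genes) and for 3 with it lower (6.64%). The 5 members below the count filter were Ccnb1, Plk1, Bub1, Melk and Cdc6.

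Which members passed depended on single libraries and on whether the thymocyte list was a covariate in the fit. Over 10 fits that each left out 1 library, Bub1b and Cdt1 passed in 10, Mcm4 in 9, Mcm7, Kif11 and Cdc45 in 7, Mcm6 in 5, Ccnb2, Cdk1 and Tyms in 2 and E2f1 in 1. The count fell from 11 to 2 without aN1aN2aN3 replicate 3, to 5 without aN1aN2aN3 replicate 2 or 4 or aJ1aJ2 replicate 3, to 6 without aN1aN2aN3 replicate 5 or aJ1aJ2 replicate 1, and to 7 without aJ1aJ2 replicate 2. Replicate 1 of aJ1aJ2 is the library high in thymocyte genes, and without it the 5 members that rose and Cdc45 passed (14% of all genes).

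With the log2 sum of the thymocyte list as a covariate, 1 of the 11 calls was kept, that of Cdc45, where 6.44% of all genes passed. Bub1b and Cdt1, which passed without each library in turn, were both lost in that fit. Bub1b then had 0.97 (adjusted p = 0.0616), Mcm6 0.78 (adjusted p = 0.139), Cdk1 -1.30 (adjusted p = 0.0763), Kif11 -0.81 (adjusted p = 0.171) and E2f1 -0.82 (adjusted p = 0.123), each in the direction given above. With skeletal muscle genes as a covariate all 11 passed. In this set the thymocyte list had a median of 7.80 CPM with aJ1aJ2 and 2.04 CPM with aN1aN2aN3, so that covariate varied partly with the antibody. The T cell list ran the other way, with medians of 16.1 and 21.2 CPM. The part of thymus in the lost calls was not tested.

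Tissue markers differed in this set too. The thyrocyte list summed to 13571 to 25546 CPM with aJ1aJ2 and to 27927 to 49199 CPM with aN1aN2aN3, against group medians of 254922 to 454131 CPM in the other 8 groups. Tg, the thyroglobulin gene, rose with aN1aN2aN3 (1.31, adjusted p = 0.0137), Pax8 rose (0.78, adjusted p = 0.0222) and the iodide transporter Slc5a5 fell (-1.91, adjusted p = 0.0165). The list of C cells, the calcitonin cells of the gland, also separated the groups, at 7170 to 18409 CPM with aJ1aJ2 and 22224 to 36523 CPM with aN1aN2aN3. The adipocyte list did so in the other direction, at 2224 to 3814 CPM and 214 to 1072 CPM. The thymocyte list was at 1.07 to 27.7 CPM and 1.06 to 4.33 CPM, with overlap. The part of thyrocytes, C cells and adipocytes in the 11 calls was not tested.

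Further lists of the same pathways also held calls in both directions in the second set, where 19.6% of all genes passed. Of 27 G1 genes tested, 3 rose and 1 fell, a smaller share than over all genes: the cyclin-dependent kinase inhibitor Cdkn1a (2.12, adjusted p = 0.0253), Myc (1.25, adjusted p = 0.0104) and the pocket protein Rbl2 (0.70, adjusted p = 0.0307) rose, and cyclin D1 (Ccnd1) fell (-1.07, adjusted p = 0.0134). Of 13 p53 target genes, 5 rose and 1 fell. Sesn2 was 14.3, 15.8, 14.5, 20.9 and 29.9 CPM with aJ1aJ2 and 48.4, 138, 97.2, 83.5 and 110 CPM with aN1aN2aN3, with no overlap (2.29, adjusted p = 0.00114). Sesn1 (1.46, adjusted p = 0.00169), Btg2, an antiproliferative factor (1.91, adjusted p = 0.0034) and Trp53inp1 (1.44, adjusted p = 0.0116) also rose. Cdkn1a belongs to both lists.

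Of 43 other replication genes 2 rose and 5 fell, the smallest p-values being those of the clamp loader gene Rfc4 (-0.71, adjusted p = 0.0134), the kinase Cdc7 (-1.50, adjusted p = 0.0163), Dut (-0.62, adjusted p = 0.0188) and Orc4 (-0.53, adjusted p = 0.0261). Of 39 other mitosis genes 4 rose and 2 fell. Both lists held calls in a smaller share than the 19.6% of all genes. The smallest p-values among the other mitosis genes were those of Ska3 of the outer kinetochore (1.66, adjusted p = 0.00299), the condensin subunit Smc2 (-1.50, adjusted p = 0.00363), Tacc3 (0.97, adjusted p = 0.0072) and the phosphatase Cdc25b (0.64, adjusted p = 0.017). The list medians were -0.01 for G1 genes, -0.17 for p53 targets, 0.01 for other replication genes and -0.24 for other mitosis genes.

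In the other comparisons between groups these 4 lists held 1 call, Timeless, a replication fork protein, which rose with aN1aN2 at 15 hours. It was 8.31, 8.38, 8.66, 8.77 and 7.12 CPM in RW and 11.4, 16.0, 13.0, 12.5 and 11.3 CPM in aN1aN2, without overlap (0.63, SE 0.13, adjusted p = 0.0226), 1 of 45 replication genes tested against 1.68% of all genes. With aJ1aJ2 at the same time Timeless had 0.60 (adjusted p = 0.0554). The aN1aN2 comparison lies across the identifier runs, and the aJ1aJ2 comparison within 1 run. The interaction of aN1aN2 between 5 days and 15 hours held 2 calls, thymidine kinase Tk1 (1.47, adjusted p = 0.0375) and Cdc25b (1.56, adjusted p = 0.00753). The other mitosis genes, none of them members, had list medians near those of the members: -0.61 at 15 hours and -0.54 in the first 7-day set for aJ1aJ2 against RW, and 1.77 for aN1aN2 against RW at 5 days.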

How the data were processed

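Total RNA of mouse thyroid was extracted with Trizol and columns, and 50-base single-end reads were sequenced on an Illumina HiSeq, per the labels' protocols. The authors deposited raw counts per gene and FPKM values (fragments scaled by gene length and library size), with GSNAP and limma named in the submitters' processing notes. No source used here gives their versions, the genome build or whether counting used strand. In each column the counts of all genes gave the library size (15271242 to 52835846). Of 52636 genes, 52403 had a symbol.

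Counts were tested with edgeR 4.0.16 in R 4.3.3 (quasi-likelihood test with robust dispersion, TMM scaling, filterByExpr with minimum counts of 10 and 15 in total). P-values were adjusted by Benjamini-Hochberg over all genes tested, with a threshold of 0.05. A fit held the 3 groups of 15 hours, another the 3 groups of 5 days, and each 7-day set had its own. The interactions were fitted over 40 libraries. FPKM values served only to compare genes per length. Among 100 pairs of libraries within groups, the chi-square per degree of freedom was at least 17.1, so none was counted as 1 library. Exon overlaps came from the GENCODE M21 annotation, and promoters from RefSeq. The fits of the 7-day sets were tested on simulated counts with the same spread for every gene and no outlying library. That test does not cover libraries that stand apart.

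Named genes were all members past the threshold, 12 fixed members (Mki67, Top2a, Cdk1, Ccnb1, Ccna2, Plk1, Rrm2, Pcna, Mcm5, Mcm6, E2f1, Foxm1), the 5 smallest p-values in comparisons with fewer than 5 calls, members under the count filter, and up to 4 genes of each further list with calls. Other genes named with values are markers (Rag1, Foxn1, Krt4, Krt13, Ltf, Tg, Pax8, Slc5a5) or members picked out after their values were seen (such as Hmmr, Aurka, Rrm1 and Tyms in single libraries). The members and lists were chosen with earlier results of these data known. Alternatives were DESeq2 1.42.0, other size factors, no count filter, the replicate number as a block, thymocyte or muscle genes as a covariate, fits of 2 groups alone, unscaled totals, 1 strand for promoters, and leaving out libraries singly or by marker genes.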

Additional observations from a re-analysis of the deposited data

Results flagged for a closer look

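Sums of 39 members and the 12 fixed members were examined in each group of 5 for a library whose gap to the nearest other exceeded 0.71 of the group's range. Of 130 groups of values 41 had such a library, where chance alone gives about 1 in 20. Genes of the list rise and fall together, so these are not 41 separate events.

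In aN1aN2 at 5 days replicate 4 the sum was 1719 CPM. Mki67 was at 252 CPM, Top2a at 235, Cdk1 at 28.1, Ccnb1 at 4.89, Ccna2 at 63.1, Plk1 at 11.8 and Rrm2 at 51.5. Replication and transcription factor genes stood out there too, with Pcna at 7.49 CPM, Mcm5 at 52.0, Mcm6 at 83.4, E2f1 at 11.2 and Foxm1 at 35.0.

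In aJ1aJ2 at 5 days replicate 3 the sum was 329 CPM, with Mki67 at 44.9 CPM, Top2a at 23.2, Cdk1 at 5.39, Ccna2 at 11.3, Rrm2 at 8.81 and E2f1 at 4.08. In RW of the first 7-day set replicate 2 the sum was 269 CPM, with Mki67 at 20.5 CPM, Top2a at 17.6, Cdk1 at 3.15, Ccnb1 at 0.541, Rrm2 at 5.16 and Mcm5 at 11.7. At 15 hours, aN1aN2 replicate 2 had Cdk1 at 6.57 CPM, Ccnb1 at 1.04 and Ccna2 at 10.3, and RW replicate 2 had Ccnb1 at 0.658 CPM, Rrm2 at 6.72 and Mcm5 at 11.9.

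The remaining values stood apart by small amounts or on the low side. In aJ1aJ2 at 15 hours replicate 3 the sum was 136 CPM, Ccnb1 0.229 CPM and Mcm6 19.0 CPM. In aJ1aJ2 of the first 7-day set, replicate 2 had Ccnb1 at 0.0682 CPM, with the other 4 libraries at 0, and Mcm5 at 2.73 CPM, and replicate 4 had Top2a at 1.28 CPM. Mcm5 was 2.03 CPM in RW at 5 days replicate 3, the library rich in muscle genes, and Mcm6 was 18.8 CPM in RW at 15 hours replicate 5.

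The effect of aN1aN2 against RW differed between 5 days and 15 hours by 3.66 on the log2 scale for Plk1 and by 2.56 for Bub1b in the interaction test, and both calls were lost without aN1aN2 at 5 days replicate 4.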

How the results depend on the processing

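Counts of members past the threshold moved as follows. DESeq2 called 2 members for aN1aN2 against aJ1aJ2 at 15 hours, 3 for aN1aN2 against RW at 5 days, 8 in the first 7-day set and 4 for the aN1aN2 interaction, where edgeR called 0, 0, 0 and 2. In the second 7-day set the 11 calls became 6 without the count filter, 6 without the library high in thymocyte genes, 1 with the thymocyte covariate, and 2 to 12 when single libraries were left out. For the aN1aN2 interaction the 2 calls became 0 without the count filter, 0 with the thymocyte covariate, 4 with the muscle covariate, 0 without libraries high in thymocyte genes, and 0 to 4 when single libraries were left out. With sets of libraries chosen after seeing the data, they became 0 without those high in thymocyte or neutrophil genes and 0 without those high in Krt4. The cause was not tested. CCAAT on the gene's strand alone was found in 50% of members, against 21.1% of all windows on that strand. No direction of a called result reversed under these alternatives.

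With the replicate number as a block, 3 members passed in the second 7-day set and 1 in the aN1aN2 interaction. Same-numbered libraries correlated above 0.1 in 8 of 15 pairs at 15 hours, 9 of 15 at 5 days, 1 of 5 and 0 of 5 in the 7-day sets. Different-numbered ones did so in 27 of 60, 30 of 60, 10 of 20 and 6 of 20. Same-numbered pairs had the higher median at 15 hours (0.148 against -0.052) and 5 days (0.319 against 0.113). They had the lower median in the 7-day sets (-0.407 against 0.102 and -0.150 against 0.034). The labels do not say that the numbers pair libraries, and the main fits did not pair them. Low counts limit Ccnb1, which was under the filter in every comparison, and the 8 and 5 members under the filter at 7 days.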
